A study of Mus musculus with 12 samples.

Results

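The genes described here are 52 DNA repair genes out of 54752 genes in the deposited table. They were chosen by name for their place in 4 pathways, with earlier results of these data known. They comprise 20 genes of base excision repair, 6 of mismatch repair, 12 of nucleotide excision repair and 14 of the repair of crosslinks between DNA strands. Their RNA was measured in the cerebellar cortex of 12 wild-type male F1 hybrid C57BL6J/FVB mice aged 12 weeks, 4 on each of 3 diets. Mice fed ad libitum (AL) had unlimited food, mice on dietary restriction (DR) received a limited portion once a day before the dark period and were sacrificed without the last of these meals, and mice on a ketogenic diet (KD) received a food whose composition is not given in the sources used here. All groups were wild-type and of the same age, sex and tissue, and the study chose its AL and DR mice by RNA quality. The tissue was a piece of hemisphere, paravermis and vermis without the cerebellar nuclei. Markers of its 2 main neurons were abundant, at a summed 5528 to 7038 CPM (reads per 1000000 reads of the library) per mouse for 6 Purkinje cell genes and 3841 to 4205 CPM for 5 granule cell genes. Between 31712084 and 40798644 reads were counted per library, with a median of 37042341 for AL, 35448835 for DR and 37671175 for KD.

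Cells repair damage to DNA by separate routes. In base excision repair a glycosylase removes a single altered base, and an endonuclease, a polymerase and a ligase replace it, while mismatch repair removes errors of pairing. Nucleotide excision repair cuts out a stretch of strand around a bulky lesion, found either anywhere in the genome or where it stops RNA polymerase, and the Fanconi anemia proteins with their nucleases unhook bonds that join both strands. Neurons no longer replicate their DNA but transcribe it heavily, and inherited defects in several of these genes damage the cerebellum.

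Most of the repair genes were expressed at low levels, and each pathway had a few members well above the others. Levels of different genes were compared as mean CPM over the 12 mice per kilobase of exon, a scale that corrects for the length of the gene. Ddb1, the adaptor of a ubiquitin ligase that works with the damage sensor Ddb2, was highest at 63.9 CPM per kilobase. Its pathway also held Rad23b, the partner of the sensor Xpc, at 28.8 CPM per kilobase, and the pathway medians, in CPM per kilobase, were 6.46 for nucleotide excision repair, 4.17 for base excision repair, 2.29 for mismatch repair and 1.30 for crosslink repair. In base excision repair the gap-filling polymerase Polb led at 23.5 CPM per kilobase, in crosslink repair the single-strand binding protein Rpa1 at 14.1, and in mismatch repair the recognition protein Msh6 at 7.58. At the other end stood Fancd2, the protein that the Fanconi ubiquitin ligase modifies, at 0.0953 CPM per kilobase, the exonuclease Exo1 at 0.0387 and the glycosylase Neil3 at 0.0037. Neil3 had at most 4 reads in any library and was at 0 CPM in all 4 DR mice, too few to compare the diets at this depth, so it did not pass the filter on low counts and was not tested. Exo1, with 4 to 23 reads per library, passed that filter in the comparisons that include DR mice and not in KD vs AL.

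The first comparison asked whether DR changed the RNA level of these genes. On DR, 3 of the 51 tested rose and none fell. The test was the quasi-likelihood test of edgeR, with p-values adjusted after Benjamini and Hochberg over all 19052 genes and a threshold of 0.05, and it called 3.06% of all genes, 1.32% as higher and 1.74% as lower. The 3 genes were Mpg, a glycosylase that removes alkylated purines, Mlh3, a MutL homolog of mismatch repair, and Dclre1a, a nuclease that digests DNA past a crosslink. Each pathway but nucleotide excision repair thus held 1 of them.

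Mpg (ENSMUSG00000020287.15, GRCm38.p6, chr11:32226505-32232700, plus strand) was at 8.13, 9.47, 9.47 and 8.49 CPM in AL replicates 1 to 4 and at 12.1, 11.2, 11.8 and 10.9 CPM in DR replicates 1 to 4. Every DR mouse lay above every AL mouse. The mean went from 8.89 ± 0.684 CPM to 11.5 ± 0.544 CPM (mean ± SD, n = 4), a log2 fold change (log2FC) of 0.37 (SE 0.08, edgeR adjusted p = 0.0231). Exons of Nprl3, a gene of nutrient sensing on the opposite strand, cover 35.7% of the exonic bases of Mpg, and the library kit did not mark strand, so reads from those bases cannot be told apart. Nprl3 was at 23.7 ± 1.29 CPM in AL mice and 27.2 ± 1.08 CPM on DR (mean ± SD, n = 4), without overlap between the diets, and did not pass the threshold (log2FC 0.20, edgeR adjusted p = 0.0846).

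Mlh3 (ENSMUSG00000021245.15, chr12:85234520-85270599, minus strand) was at 22.1, 21.7, 22.1 and 24.1 CPM in AL replicates 1 to 4 and at 28.2, 27.8, 26.6 and 27.4 CPM in DR replicates 1 to 4. The lowest DR mouse was again above the highest AL mouse. The means were 22.5 ± 1.08 and 27.5 ± 0.678 CPM (mean ± SD, n = 4), a log2FC of 0.29 (SE 0.06, edgeR adjusted p = 0.0128). No exon of another gene overlaps those of Mlh3. It was the 1 repair gene called in DR vs AL in all 8 fits that left out a mouse.

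Dclre1a (ENSMUSG00000025077.13, chr19:56529167-56548222, minus strand) was at 6.09, 6.17, 6.715 and 5.96 CPM in AL replicates 1 to 4 and at 8.30, 8.64, 8.66 and 7.34 CPM in DR replicates 1 to 4. The diets did not overlap, although DR replicate 4 came close to AL replicate 3. From 6.23 ± 0.333 to 8.235 ± 0.62 CPM (mean ± SD, n = 4), its log2FC was 0.40 (SE 0.09, edgeR adjusted p = 0.0288), the highest among the 51 repair genes. Without AL replicate 1 or 4 or DR replicate 1 or 3, Mpg lost its call (edgeR adjusted p 0.0838, 0.0726, 0.0625 and 0.0713). Dclre1a lost its call without AL replicate 1, 2 or 4 or DR replicate 1, 2 or 3 (0.0873, 0.0743, 0.0828, 0.0612, 0.069 and 0.0864), so that 1 repair gene was left without AL replicate 1, AL replicate 4, DR replicate 1 or DR replicate 3. Over these 8 fits the log2FC of Mpg lay between 0.335 and 0.405 and that of Dclre1a between 0.375 and 0.457.

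**Figure D1:**
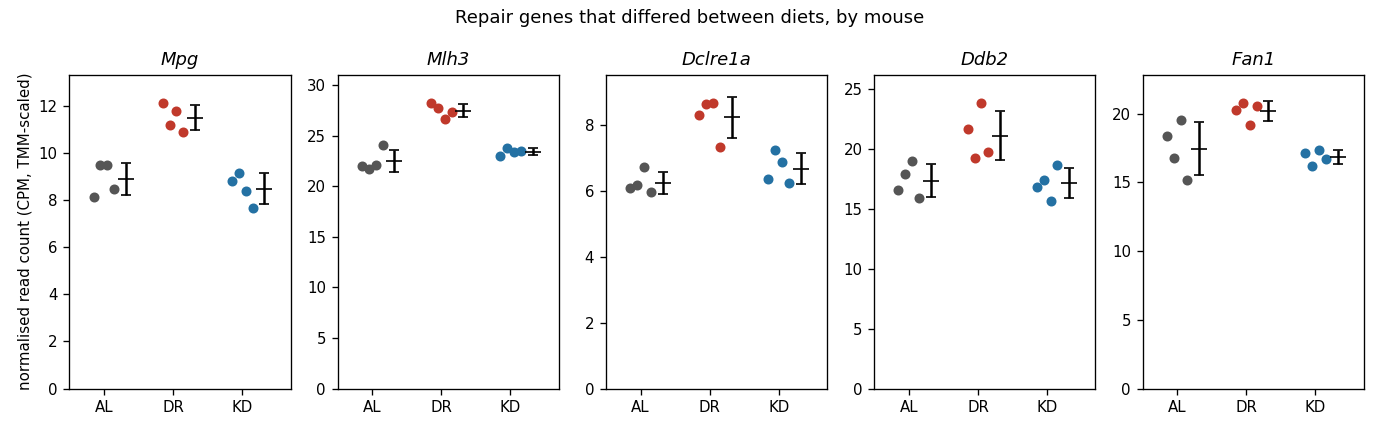
Normalised read counts (CPM on TMM-scaled library sizes, vertical axis from 0) of the 5 repair genes that passed the threshold in any comparison, 1 point per mouse, with the mean and SD of each diet as a bar to the right of its points (n = 4). All 4 DR mice lie above all AL mice in Mpg, Mlh3, Dclre1a and Ddb2, and above all KD mice in all 5 genes, while Fan1 of AL replicate 3 lies within the DR range.

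The DNA in front of 2 of these genes is shown because Mlh3 was called in all 8 fits without a mouse and because Dclre1a starts 39 bases from the start of another gene, Nhlrc2, which is read in the opposite direction. The sequences are from RefSeq on GRCm38.p6. For Mlh3 they are the 250 bases before its start, chr12:85270600-85270849 on the minus strand, written 5′ to 3′, with a CCAAT box (read as ATTGG on this strand) and a match to the NRF1 motif in capitals.
Mlh3: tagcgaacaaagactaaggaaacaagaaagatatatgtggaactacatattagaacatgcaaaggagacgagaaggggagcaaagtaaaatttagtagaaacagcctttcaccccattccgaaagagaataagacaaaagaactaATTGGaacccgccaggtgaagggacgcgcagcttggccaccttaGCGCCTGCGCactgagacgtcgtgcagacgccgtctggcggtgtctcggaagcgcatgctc
For Dclre1a they are the 38 bases that lie between both starts, chr19:56548223-56548260, on the minus strand, in which none of the searched motifs occurs.
Dclre1a: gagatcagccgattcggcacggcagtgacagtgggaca
On the far side of these bases, Nhlrc2 had means of 18.2 ± 1.07 and 18.4 ± 1.13 CPM (SD, 4 AL and 4 DR mice), with a log2FC of 0.01 and a 95% interval from -0.13 to 0.16.

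Promoters of 250 bases were found for 44 of the 52 repair genes, and 8 short motifs were searched on both strands. The CCAAT box (CCAAT or ATTGG) occurred in 61.4% of them and in 34.5% of all 27025 promoters. The GC box (GGGCGG) was in 56.8% against 32.9%, the E-box (CACGTG) in 18.2% against 6.05% and the NRF1 motif (GCGC, any base, then TGCGC) in 13.6% against 3.86%. The TATA box (TATAAA) was found in 4.55% against 13%, and the remaining motifs, ETS (CCGGAAG, 11.4% against 7.05%), E2F (TTCCCGCC, 2.27% against 1.88%) and CRE (TGACGTCA, 2.27% against 1.62%), differed less. The promoters of the repair genes also held more G and C, with a median of 57.4% against 52%. The 27025 promoters were not limited to genes expressed in this tissue, whereas 51 of the 52 repair genes passed the low-count filter. The parts of base composition and of expression in these shares were not tested. A match is a run of letters and was not measured as a bound site.

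Of the 51 repair genes, 37 had a fitted log2FC above 0 (72.5%, where 51% of all genes had one), and the median was 0.12 against 0.004 over all genes. At an unadjusted p under 0.05 there were 14 higher genes (27.5%, against a background of 9.02%) and 2 lower (against 8.98%). The 14 differed by 8.43 to 32.1% between the diets and the 2 by -8.01 and -9.37%. All mice of 1 diet lay on the same side of all mice of the other in 11 higher genes and 1 lower gene, where 10.9% of all genes showed this (5.3% higher and 5.64% lower).

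In base excision repair, 15 of 19 tested genes were above 0, with a median log2FC of 0.12. Of its glycosylases, Ogg1, which removes oxidised guanine, was at 2.12, 1.91, 2.15 and 2.06 CPM in AL mice and 2.73, 3.03, 2.675 and 2.34 CPM on DR in replicates 1 to 4. The diets did not overlap, but at 64 to 107 reads per library its adjusted p was 0.153 in edgeR's test (log2FC 0.38, standard error 0.14). Exons of Camk1 on the opposite strand cover 10.6% of its exonic bases. Mbd4, which removes thymine from mismatches at methylated sites, also had no overlap at a smaller log2FC of 0.105 (edgeR adjusted p = 0.293). Nthl1, which removes oxidised pyrimidines, had a log2FC of 0.23 (adjusted p = 0.396). The polymerase Polb was at 91.8 ± 2.99 CPM in AL mice and 94.4 ± 3.34 CPM on DR (mean ± SD, n = 4). Parp1 and Parp2 both detect strand breaks and add ADP-ribose chains, and they stood on opposite sides. Parp1 was at 113.9, 111.5, 109.8 and 110.7 CPM in AL mice and at 99.8, 103.6, 99.7 and 107.1 CPM on DR, so every DR mouse was lower (log2FC -0.12, edgeR adjusted p = 0.138). Parp2 was at 34.9 ± 1.90 and 37.8 ± 1.09 CPM (SD, 4 mice each; log2FC 0.12, adjusted p = 0.264). Neither passed the threshold.

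In mismatch repair, 4 of 6 genes were above 0, with a median of 0.09. Msh3, which recognises longer loops, had a log2FC of 0.19 (edgeR adjusted p = 0.167), and Msh6, which recognises single mismatches, of -0.12 (adjusted p = 0.31), and in both the diets overlapped. Without AL replicate 4 the log2FC of Msh6 was -0.066. The MutL homolog Pms2 was at 22.35 ± 1.14 CPM in AL mice and 23.2 ± 0.638 CPM on DR (mean ± SD, n = 4).

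Nucleotide excision repair had as many tested genes above 0 as below, 6 of 12, and the lowest median, 0.015, and with library size only Ercc2 and Ercc5 turned to above 0. The genes with its 2 smallest p-values were damage sensors. Ddb2 (ENSMUSG00000002109.14, chr2:91211572-91236982, minus strand), which binds ultraviolet damage, was at 16.6, 17.9, 19.0 and 15.9 CPM in AL mice and 21.7, 19.3, 23.8 and 19.7 CPM on DR. The groups did not overlap, by a narrow margin between AL replicate 3 and DR replicate 2. Its log2FC of 0.28 (SE 0.08) missed the threshold (edgeR adjusted p = 0.0719), and passed it without AL replicate 3 (0.0407), with DESeq2 (0.026), without the low-count filter (0.0124) and in a joint fit of all 12 libraries (0.0464). Exons of Acp2 on the opposite strand cover 23.8% of its exonic bases, and Acp2 had a log2FC of 0.12 (edgeR adjusted p = 0.239). Xpc, the general sensor of distorted DNA, was at 20.15 ± 0.797 and 22.6 ± 0.9 CPM (mean ± SD, n = 4), without overlap and with an adjusted p of 0.152 in edgeR's test. The nuclease Ercc4 had no overlap at a log2FC of 0.09 (adjusted p = 0.368). Ercc8, which acts where RNA polymerase is stalled, was on the other side at -0.14 (edgeR adjusted p = 0.254), and the abundant Ddb1 at -0.04 with a standard error of 0.04.

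Crosslink repair had the highest median, 0.18, with 12 of 14 genes above 0. Of the Fanconi core complex, Fanca was at 4.16 ± 0.633 and 5.23 ± 0.306 CPM, Fancg at 23.2 ± 0.266 and 25.5 ± 0.875 CPM and the ubiquitin ligase Fancl at 3.14 ± 0.321 and 3.96 ± 0.176 CPM (mean ± SD, n = 4). In these 3 the DR mice lay above the AL mice, and in none was the adjusted p under 0.05 in edgeR's test (0.169, 0.192 and 0.154). In Fancc and Fancm, also of this complex, the diets overlapped, with log2FC values of 0.00 and 0.08 (95% intervals -0.16 to 0.16 and -0.06 to 0.23). Opposite-strand exons of Zfp276 cover 10.5% of the exonic bases of Fanca, and those of Vrk2 13.7% of Fancl. Exons of other genes cover 18.6% of the exonic bases of Fancc. The nuclease Fan1 had a log2FC of 0.21 (adjusted p = 0.165), the nuclease Dclre1c of 0.165 (0.44), the helicase Blm of 0.12 (0.606) and Fancd2 of 0.21 with a standard error of 0.29. Rpa1, at 79 ± 2.16 and 78.6 ± 1.69 CPM (mean ± SD, n = 4), had a log2FC of -0.01, which turned to above 0 with library size only.

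**Figure D2:**
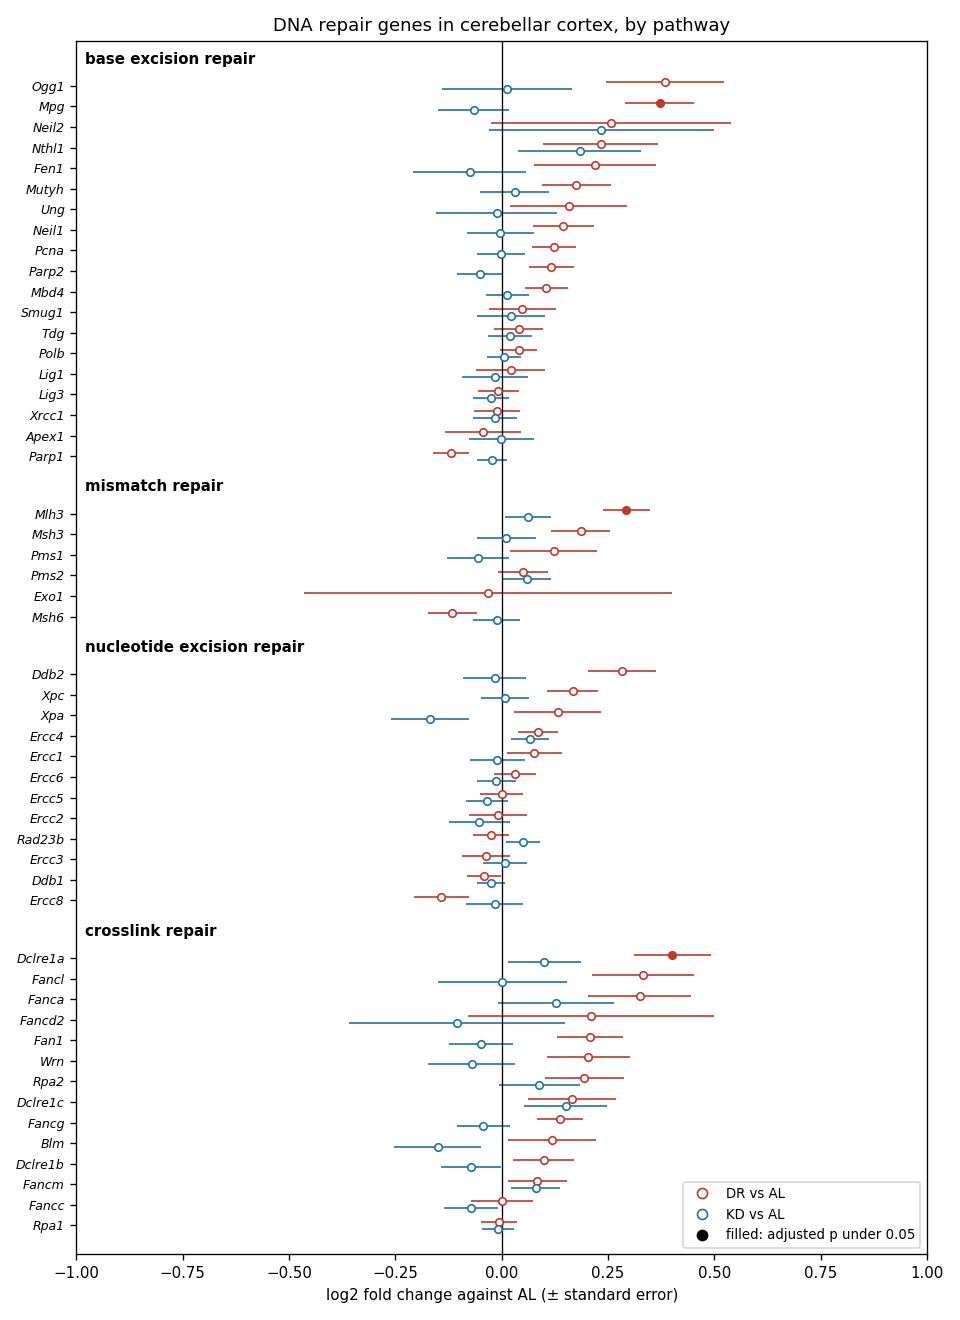
Log2 fold change (log2FC) against AL of the 51 repair genes tested in DR vs AL, by pathway, for DR (red) and KD (blue), with bars of 1 standard error and filled points for an adjusted p under 0.05. The filled points are Mpg, Mlh3 and Dclre1a on DR, no KD point is filled, and Exo1 has no KD point because it did not pass the filter there.

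Markers of several cell types moved with the diet in the same libraries. The 6 Purkinje cell genes were all lower on DR than on AL, 1 of them called (Car8, log2FC -0.245, edgeR adjusted p = 0.0327). Their summed level was 7038, 6612, 6546 and 6724 CPM in AL replicates 1 to 4, 5528, 5549, 5921 and 6378 CPM in DR replicates 1 to 4, and 6598, 6647, 6465 and 6671 CPM in KD replicates 1 to 4, with Itpr1 the most abundant. The 5 genes of Bergmann glia and astrocytes were lower too, 2 of them called (Aqp4 -0.52, adjusted p = 0.000706, and Hopx -0.47, adjusted p = 0.00143). Their sum was 1818, 1882, 1783 and 1750 CPM on AL, 1603, 1547, 1551 and 1599 CPM on DR and 1761, 1699, 1751 and 1775 CPM on KD, with Slc1a3 the most abundant. For both lists every DR mouse was below every AL and KD mouse. In whole tissue, fewer cells of a type and less RNA per cell cannot be told apart.

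The genes of granule cells, the most numerous neurons here, summed to 3964 ± 145 CPM on AL, 4195 ± 13.1 CPM on DR and 4038 ± 74.5 CPM on KD (mean ± SD, n = 4). Every DR mouse, at 4176 CPM or more, was above every AL mouse (up to 4173 CPM) and KD mouse (up to 4132 CPM), and none of the 5 was called in DR vs AL (Cbln3, the most abundant, 0.16, edgeR adjusted p = 0.18). Oligodendrocyte genes were lower in 4 of 5 on DR than on AL, with a median log2FC of -0.21 and 1 called. Mbp, the most abundant of them, had a log2FC of -0.09 (edgeR adjusted p = 0.686). Of the 3 genes of oligodendrocyte precursors, 1 was called (Gpr17, the most abundant, -0.53, adjusted p = 0.00725). Proliferating cells, in which many repair genes are expressed for replication, were represented by 15 genes, of which Cdk1, Bub1, Aurkb and Birc5 did not pass the filter in any comparison. Their sum was 35 ± 2.47 CPM on AL, 33.7 ± 1.31 CPM on DR and 36.8 ± 2.46 CPM on KD (mean ± SD, n = 4), with Mcm5 the most abundant. Of 10 tested in DR vs AL 1 was called, Top2a, which fell from 0.488 ± 0.0281 to 0.1 ± 0.0545 CPM (SD, 4 mice each; 1 to 22 reads per library, edgeR adjusted p = 0.00731). Mki67 (log2FC -1.29, adjusted p = 0.156 in edgeR) and Cenpf (-0.95, 0.166) were lower at an unadjusted p under 0.05, and 0 genes of the list were higher at that level. No listed marker gene was at 0 in all libraries, and the part of these cell types in the values of the repair genes was not tested.

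The size of the DR value went with the abundance of the gene. Over the 51 repair genes, Spearman's rho between mean CPM and the log2FC of DR vs AL was -0.618, against -0.117 over all 19052 genes and 0.002 over 50 repair genes in KD vs AL. Genes are not independent replicates, and all points share the same 8 libraries. The 18 repair genes with a mean up to 10 CPM had a median log2FC of 0.21, the 16 from 10 to 25 CPM of 0.12 and the 17 above 25 CPM of -0.01. Over all genes the medians in these ranges, which were set after the values were seen, were 0.04, 0.015 and -0.01. Of the abundant genes, Rad23b had a log2FC of -0.025 and Polb of 0.04. The summed level of all 52 genes, to which such genes add most, was 1533 ± 2.87 CPM in AL and 1564 ± 11.1 CPM in DR mice (mean ± SD).

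**Figure D3:**
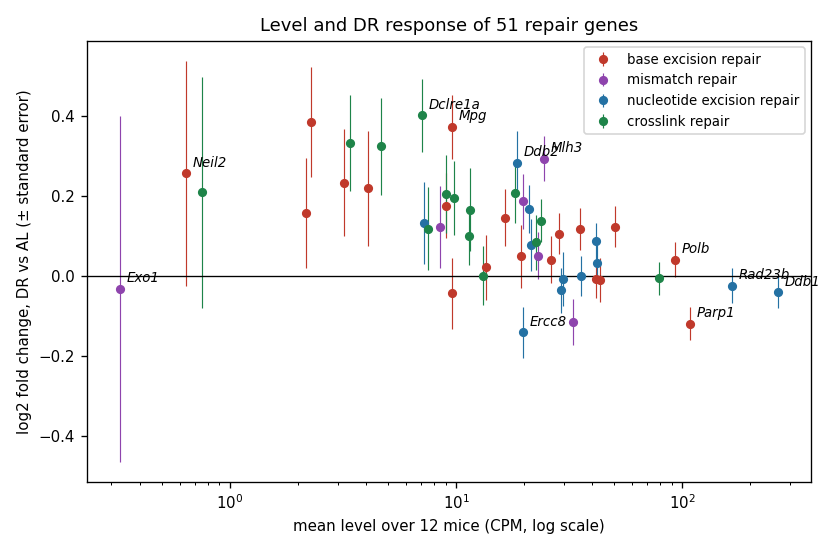
Log2 fold change (log2FC) of DR vs AL (vertical axis, bars of 1 standard error) against mean level over 12 mice (horizontal axis, CPM on a log scale) for 51 repair genes, coloured by pathway. Genes above 25 CPM sit around 0 with short bars, and most genes below 10 CPM lie above 0 with longer bars.

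The next comparison set KD beside AL, and no repair gene passed the threshold. EdgeR called 0 of the 50 tested, as it called 0 (0%) of all 19036 genes, and DESeq2 called 0 repair genes and 10 genes in all. At an unadjusted p under 0.05 there were 0 repair genes and 928 of all genes (4.87%, 2.39% as higher and 2.48% as lower). The diets were without overlap in 0 repair genes, and in 2.96% of all genes (1.41% higher, 1.55% lower). Of the 50, 21 had a log2FC above 0, where 50.1% of all genes did, and the median was -0.01. For the genes called on DR the KD means were 8.49 ± 0.644 CPM for Mpg, 23.4 ± 0.328 CPM for Mlh3 and 6.68 ± 0.47 CPM for Dclre1a (mean ± SD, n = 4). Their log2FC values against AL had 95% intervals of -0.245 to 0.11, -0.05 to 0.18 and -0.08 to 0.28. The smallest unadjusted p belonged to Xpa, which verifies damage before the cut, with KD mice at 6.52, 6.65, 6.32 and 6.28 CPM and AL mice at 6.83, 6.53, 7.26 and 8.46 CPM. Its log2FC was -0.17 (SE 0.09), and -0.091 without AL replicate 4, while AL replicate 2 lay among the KD mice.

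KD vs DR is also the test of whether the response to the 2 diets differed, since both responses are measured from the same AL mice. It shares the DR mice with DR vs AL, so its values are given beside those of that comparison and are not separate evidence. Of the 51 repair genes tested, 4 were called lower on KD than on DR and 0 higher by edgeR with adjustment over all genes, where 942 of 19087 genes (4.94%) were called, 2.43% as higher and 2.51% as lower. The 4 were Mpg and Mlh3, the sensor Ddb2, and Fan1, a nuclease that cuts at crosslinks. Mpg was at 8.81, 9.135, 8.37 and 7.65 CPM in KD replicates 1 to 4, below all DR mice and within or below the AL range, with a log2FC of -0.44 (SE 0.08, edgeR adjusted p = 0.00437). The overlapping Nprl3 passed the threshold here too (log2FC -0.245, adjusted p = 0.0389).

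Mlh3 was at 23.0, 23.8, 23.4 and 23.5 CPM on KD, within the AL range and below every DR mouse (log2FC -0.23, SE 0.05, edgeR adjusted p = 0.0167). Ddb2 was at 16.8, 17.4, 15.7 and 18.7 CPM, again below every DR mouse (-0.30, SE 0.08, edgeR adjusted p = 0.0329), while the overlapping Acp2 had an adjusted p of 0.174. Fan1 (ENSMUSG00000033458.17, chr7:64346758-64374095, minus strand) was at 17.2, 16.2, 17.4 and 16.7 CPM on KD and at 20.2, 20.75, 19.15 and 20.6 CPM on DR (-0.26, SE 0.06, edgeR adjusted p = 0.0197). Its AL mice were at 18.3, 16.75, 19.6 and 15.2 CPM, and of these only replicate 3 reached above the lowest DR mouse. Dclre1a missed the threshold at an adjusted p of 0.0641 in edgeR's test, with a log2FC of -0.30 and no overlap. It passed with DESeq2, with library size only, in the joint fit of all 12 libraries and without DR replicate 4.

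Mpg was called in all 8 fits that left out a mouse. Mlh3 was not called without KD replicate 1 (0.0614), Fan1 without KD replicate 2 (0.0548) or 4 (0.0541), and Ddb2 without DR replicate 1 (0.0723) or 3 (0.107) or KD replicate 1 (0.0947), 2 (0.0635) or 3 (0.11), and 2 repair genes were left without KD replicate 1.

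Over the 51 genes, 43 were lower on KD than on DR (8 were above 0, where 49.2% of all genes were), with a median log2FC of -0.09 against -0.002 over all genes. All 14 crosslink repair genes were below 0, with a median of -0.19, as were 17 of 19 base excision genes (median -0.05), 8 of 12 nucleotide excision genes (-0.04) and 4 of 6 mismatch repair genes (-0.18). Before adjustment, p was under 0.05 in 17 lower genes (background 9.39%) and 1 higher, Parp1 (background 9.29%). The diets did not overlap in 13 lower genes and 1 higher, Msh6, against 11.8% of all genes (5.79% lower and 6.03% higher). Among the 13 lower genes were the helicase Wrn (log2FC -0.28, edgeR adjusted p = 0.0751), Xpa (-0.30, 0.0585), Parp2 (-0.17, 0.0798), Xpc (-0.16, 0.126), Fancg (-0.18, 0.121) and Fancl (-0.33, 0.212). None of these 6 passed the threshold with all mice, TMM and edgeR. Xpa passed it with DESeq2 and with library size only. Parp2 passed it with library size only and among genes above 10 CPM, and Wrn without KD replicate 2. In the same libraries all 6 Purkinje cell genes and all 5 of Bergmann glia and astrocytes were higher on KD than on DR, with Car8, Aqp4 and Hopx called. Oligodendrocyte genes were above 0 in 4 of 5 with a median of 0.16, and 2 were called higher, Mag among them (log2FC 0.24, edgeR adjusted p = 0.0211). The precursor gene Gpr17 was also called higher (0.48, edgeR adjusted p = 0.00217). Of the 5 microglia genes 4 were above 0 with a median of 0.17, 3 of them at an unadjusted p under 0.05 and none called. Of the 5 granule cell genes 3 were above 0 with a median of 0.01, and 1, Cbln3, was called lower (log2FC -0.21, edgeR adjusted p = 0.0145). Their part in the values of the repair genes was not tested.

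The mean over all 51 genes of each mouse's log2 deviation from the 12-mouse mean puts these values side by side. It was -0.03, -0.04, -0.002 and -0.06 in AL replicates 1 to 4, 0.08, 0.06, 0.06 and 0.08 in DR replicates 1 to 4, and -0.04, -0.01, -0.04 and -0.05 in KD replicates 1 to 4. Each DR mouse was above each mouse on the other diets, while over all genes that passed the filter the mice lay between -0.008 and 0.011. By pathway the DR mice also lay above all others in base excision and crosslink repair. In mismatch and nucleotide excision repair 1 or more AL mice reached into the DR range.

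**Figure D4:**
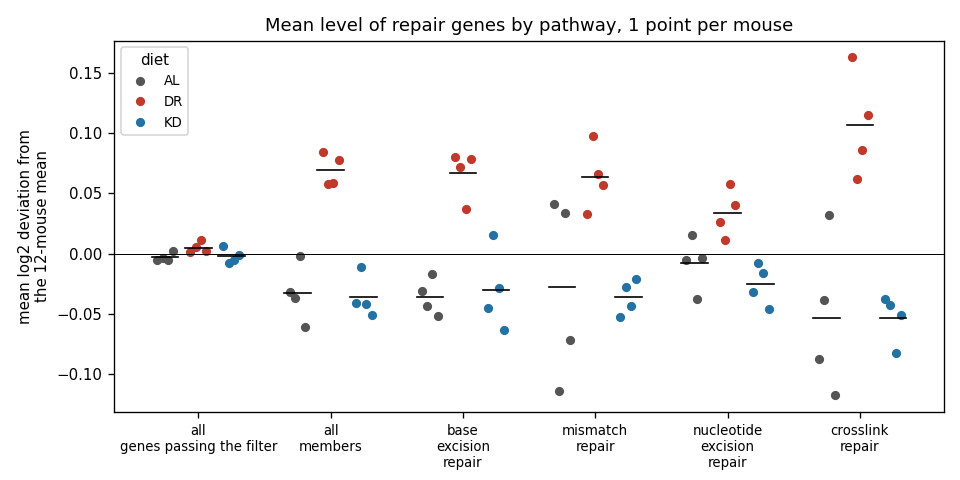
Mean log2 deviation from the 12-mouse mean (vertical axis) over all genes that passed the filter, all 51 repair genes that passed it and each pathway, 1 point per mouse, with a line at the mean of each diet (AL grey, DR red, KD blue, n = 4). DR mice lie between 0.06 and 0.08 for all repair genes, AL mice between -0.06 and -0.002 and KD mice between -0.05 and -0.01.

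A further 68 genes of these routes and of end joining were listed by function. Of the 67 tested in DR vs AL, 49 were above 0 (73.1%, where 51% of all genes were), with a median log2FC of 0.06, and 1 was called, a share near the 1.32% of all genes called higher. This was Faap20, which binds Fanca in the Fanconi core complex. It was at 38.9, 45.6, 41.9 and 34.1 CPM on AL, at 52.4, 51.7, 47.2 and 53.5 CPM on DR and at 43.15, 41.2, 39.2 and 45.05 CPM on KD, so the DR mice lay above all others (log2FC 0.35, SE 0.07, edgeR adjusted p = 0.0204, and -0.28, adjusted p = 0.00731, for KD vs DR). Unadjusted p-values under 0.05 numbered 9 for higher and 3 for lower genes (backgrounds of 9.02 and 8.98%). None of the 14 gap-filling polymerase and clamp loader subunits was called (11 above 0, median 0.04), and the smallest p was that of Rfc2, a subunit of the clamp loader (log2FC 0.22, edgeR adjusted p = 0.0535), while Rfc1, the most abundant, had 0.03. Of 15 other nucleotide excision genes 11 were above 0 (median 0.06) and none was called, with Uvssa, which works at stalled RNA polymerase, at 0.23 (adjusted p = 0.0546) and the abundant Rbx1 at 0.05. The 8 other base excision and single-strand break genes had a median of 0.07, with 7 above 0 and none at an unadjusted p under 0.05 (Hmgb1, the most abundant, -0.065, edgeR adjusted p = 0.483). The 21 other crosslink genes tested, Faap20 among them, had a median of 0.04, with 13 above 0 and Rev3l, the most abundant, at 0.01. Their unadjusted p was under 0.05 in 2 higher and 3 lower genes, and the diets were without overlap in 2 higher and 2 lower. The lower 3, none of them called, were Fanci, the partner of Fancd2 (log2FC -0.825, 7 to 26 reads per library), Faap100 of the core complex (-0.24) and the polymerase Rev1 (-0.11). Opposite-strand exons of Polg cover 15.95% of the exonic bases of Fanci, those of Eif5b 26.6% of Rev1 and those of Lat2 15.1% of Rfc2.

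The end joining genes, which seal double-strand breaks, had a median log2FC of 0.18 on DR, with 7 of 9 above 0 and none called. Paxx, a scaffold of this reaction, was at 45.0, 57.9, 55.2 and 43.95 CPM on AL, at 64.0, 66.2, 57.4 and 59.9 CPM on DR and at 46.7, 50.4, 40.9 and 48.5 CPM on KD. AL replicate 2 lay above the lowest DR mouse, and its adjusted p was 0.0656 for DR vs AL and 0.0014 for KD vs DR in edgeR's test (log2FC values 0.29 and -0.41). KD vs DR called no other end joining gene. Among all 68 other repair genes, 48 were lower on KD than on DR, 2 of them called (2.51% of all genes were called lower), and the median was -0.05. In KD vs AL 0 of 67 were called.

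Targets of p53, a factor that DNA damage activates, were counted as a further list. Cdkn1a, an inhibitor of the cell cycle, was at 38.4, 43.3, 36.5 and 26.5 CPM on AL, at 52.5, 43.1, 55.1 and 54.0 CPM on DR and at 30.8, 24.2, 25.8 and 23.8 CPM on KD. It rose on DR (log2FC 0.50, SE 0.11, edgeR adjusted p = 0.0295), with DR replicate 2 just below AL replicate 2, and was lower on KD than on DR (-0.97, SE 0.085, edgeR adjusted p = 1.98e-05). Against AL its KD value of -0.47 did not pass (unadjusted p = 0.00117, edgeR adjusted p = 0.694). Of the other p53 targets, Sesn1, a sensor of stress, was lower on KD than on DR (-0.17, adjusted p = 0.0292), and none was called against AL. In DR vs AL 8 of 12 targets were above 0 with a median of 0.04 (Ei24, the most abundant, 0.03), in KD vs AL 2 of 13 were above 0, and in KD vs DR 11 of 12 were below 0 with a median of -0.075.

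**Figure D5:**
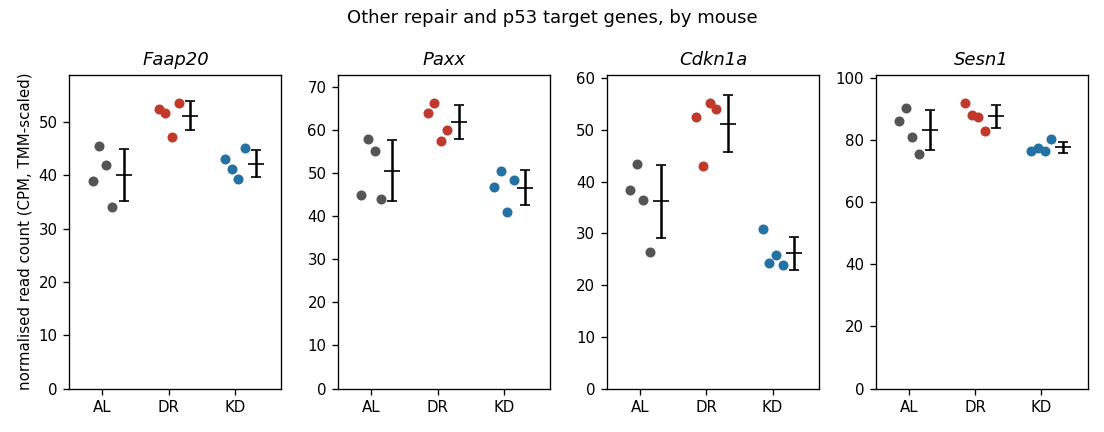
Normalised read counts (CPM on TMM-scaled library sizes, vertical axis from 0) of the crosslink repair gene Faap20, the end joining gene Paxx and the p53 targets Cdkn1a and Sesn1, 1 point per mouse, with the mean and SD of each diet as a bar (n = 4). All 4 DR mice lie above all 4 KD mice in each gene, and only in Faap20 do they lie above all AL mice.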

How the data were processed

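Poly(A) RNA of 12 cerebellar cortices was made into libraries with a kit that does not mark strand and sequenced from both ends. Per the submitters' notes and methods, adapters were removed by Trimmomatic 0.39, STAR 2.7.0f was the aligner with GRCm38.p6 as genome, and featureCounts of Subread 1.6.4 gave the counts per gene that the authors deposited without normalization. Whether counting used strand is not given in the sources used here, so values of genes with over 10% of exonic bases shared with a neighbour are uncertain, as are those of near-identical copies. Symbols were found for 54723 of 54752 genes in GENCODE M21. All 12 columns were matched to samples by title, and 0 further columns of values were left out. Replicates carry numbers in the order of the samples. The labels name separate samples and no animals, so p-values measure the spread between these samples. All 18 pairs of libraries on one diet differed by more than sampling noise (chi-square per gene 4.95 to 11.554).

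Every comparison used only the 8 libraries of its 2 diets, with no covariate, in R 4.3.3 with edgeR 4.0.16: filterByExpr (minimum count 10, minimum total 15), TMM, quasi-likelihood test, Benjamini-Hochberg adjustment and a threshold of 0.05. CPM use TMM-scaled library sizes, and log2 deviations add 0.5 CPM. The procedure was tested on simulated data, with planted changes larger than those fitted for Mpg, Mlh3, Dclre1a, Ddb2 and Fan1. Recovery of changes as small as theirs was not tested. DESeq2 1.42.0, other scalings and filters, a joint fit and each mouse left out were the alternatives. Intervals cover 95% and come from the standard errors of the fit. Promoters are from RefSeq.

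The repair genes and the lists were chosen with earlier results of these data known. Repair genes were named if called in any comparison, if among the 3 smallest p of a pathway in DR vs AL or the 2 smallest in KD vs AL, if highest or lowest per kilobase, if not passing the filter, or if the diets did not overlap in DR vs AL, which gave 28 genes. Rad23b, Wrn, Nhlrc2, Fancc, Fancm, Fanci, Faap100, Rev1, Mki67 and Cenpf with the genes that overlap a called gene were named after their values were seen. Some results of the listed genes are not reported here.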

Additional observations from a re-analysis of the deposited data

Results flagged for a closer look

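In 99 groups of 4 mice, made up of the 28 named repair genes and the mean deviations of the pathways on each diet, 10 had a mouse far from the other 3 by Dixon's test, which marks about 1 in 20 groups by chance. Among AL mice, Blm of replicate 3 was at 9.10 CPM against 6.81 to 7.17 CPM in the others. AL replicate 4 stood apart in Ddb1 (263.6 CPM, others 271.2 to 272 CPM), in Mlh3 (24.1 CPM, others 21.7 to 22.1 CPM) and in Nthl1 (3.49 CPM, others 2.61 to 2.755 CPM). Among DR mice, replicate 2 was low in Blm (7.27 CPM, others 8.41 to 8.505 CPM) and high in Fancg (26.8 CPM, others 24.9 to 25.2 CPM), and replicate 4 was high in Fanca (5.69 CPM, others 5.06 to 5.09 CPM). Among KD mice, Msh3 was at 20.85 CPM in replicate 4 (others 18.2 to 18.5 CPM), and replicate 3 was low in Pms2 (22.2 CPM, others 23.5 to 23.75 CPM) and high in Rpa1 (80.1 CPM, others 77.7 to 78 CPM). Mlh3 of AL replicate 4 lay toward the DR mice, and without that mouse its log2 fold change on DR was 0.33 in place of 0.29.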

How the results depend on the processing

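Of the gene results that were recomputed under every alternative, which do not cover each named gene, none reversed. For all 51 repair genes the direction was compared under other scalings only. With library size only 6 turned in DR vs AL (Ercc2, Ercc5, Fancc, Lig3, Rpa1 and Xrcc1, none over 0.011 from 0) and 2 in KD vs DR (Ddb1 and Pms2), and with RLE scaling Apex1 turned in KD vs AL and Rpa1 in KD vs DR. In DR vs AL the repair genes called numbered 2 to 4 under other tests, scalings and filters and 1 (without AL replicate 1 or 4 or DR replicate 1 or 3) to 4 (without AL replicate 3) with each mouse left out, and their median log2 fold change was 0.138 with library size only (43 of 51 above 0), 0.072 among genes above 10 CPM and 0.091 to 0.122 with each mouse left out. Of all genes, 1012 were called with DESeq2, 1258 without the low-count filter and 235 to 712 with each mouse left out (264, 276 and 244 without AL replicates 1, 2 and 4, 353 and 235 without DR replicates 1 and 3). Without overlap were 13 to 20 repair genes with each mouse left out, 20 without AL replicate 3, where 14.1 to 17.4% of all genes were without overlap (10.9% with all mice). With library size only, 57% of all called genes were higher in DR vs AL (43.2% with TMM) and 37.9% in KD vs DR (49.2% with TMM). In KD vs AL, 10 genes were called with DESeq2, 118 without the filter and 0 to 6 with each mouse left out (6, 2 and 5 without AL replicates 1, 3 and 4), none a repair gene, and 0 to 3 repair genes had no overlap in the latter, against 4.79 to 6.64% of all genes (2.96% with all mice). In KD vs DR, 7 repair genes were called with library size only (993 of all genes) and 2 (without KD replicate 1) to 5 (without DR replicate 4) with each mouse left out, with medians of -0.114 and -0.124 to -0.073, and a median of -0.049 among genes above 10 CPM. Of all genes, 1503 were called there without the filter and 467 to 946 with each mouse left out (520 without DR replicate 3, 526, 467 and 601 without KD replicates 1, 3 and 4). With the 11 repair genes left out that others overlap by more than 10%, an alternative chosen after seeing the data, 2 were called in KD vs DR (Fan1 and Mlh3), with a median of -0.07. In DR vs AL the same step, which leaves out Mpg, kept 2 called genes (Dclre1a and Mlh3), with a median of 0.111. The cause was not tested. Fits without a mouse hold fewer samples, and without AL replicate 3 more genes were called in DR vs AL (712, against 583 with all mice). No paired analysis was possible because the labels give the diets no shared replicate numbers. Genes under about 5 CPM, such as Ogg1 and Fancl, had standard errors above 0.1, which limits what these counts can show.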

Other observations

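The remaining cell type lists had these values, and their part in those of the repair genes was not tested. The 5 haemoglobin and erythroid genes were all lower on KD than on AL, with log2 fold changes of -0.48 to -0.45 and unadjusted p under 0.05 in each, and none was called (Hbb-bs had an adjusted p of 0.294 in edgeR and Hba-a1, the most abundant, of 0.38). All 5 were also lower on DR than on AL, at -0.594 to -0.223, with 1 at an unadjusted p under 0.05 and 0 called. Some of these genes are near-identical copies, which counting may not separate. Their sum was 353 ± 65.4 CPM on AL, 275 ± 148 CPM on DR and 254 ± 17.4 CPM on KD (SD, n = 4 each), with DR replicate 2 at 493.7 CPM. Ttr, a transport protein of the choroid plexus, was higher on KD than on DR (log2 fold change 2.16, SE 0.56, edgeR adjusted p = 0.0332). Of the 4 choroid plexus genes tested there, 2 were above 0 and 2 below. The sum of all 5, with Otx2 the most abundant, was 23.8 ± 0.634 CPM on AL, 22.7 ± 2.73 CPM on DR and 23.5 ± 3.39 CPM on KD. The mean log2 deviation of the 4 that passed the filter was 0.615, -0.399, 0.207 and 0.312 in KD replicates 1 to 4. The log2 fold change of Ttr was 0.035 in DR vs AL, and the highest of this list in KD vs AL was 2.21, with none called there. At an unadjusted p under 0.05, KD vs AL had 1 higher and 2 lower genes of this list. The 5 microglia genes summed to 46.8 ± 2.37, 43.3 ± 2.51 and 47.9 ± 2.12 CPM, the 5 endothelium genes to 163.5 ± 9.82, 158.6 ± 1.18 and 167.7 ± 5.50 CPM and the 3 genes of molecular layer interneurons to 334 ± 1.25, 317 ± 16.1 and 333 ± 12.5 CPM on AL, DR and KD (SD, n = 4 each). None of these 13 genes was called against AL. In DR vs AL the log2 fold changes were -0.175 for Csf1r, the most abundant microglia gene, -0.09 for Flt1 of endothelium and -0.09 for the interneuron gene Kit, with edgeR adjusted p of 0.274, 0.468 and 0.36, and the smallest p of the endothelium list was that of Pecam1 (0.275, adjusted p = 0.164).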
